A study of Homo sapiens with 9 samples.

Results

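Respiratory complex I, the NADH dehydrogenase of the inner mitochondrial membrane, was followed through its nuclear subunit genes in the established cell line A673, from an Ewing sarcoma, after siRNA against LRWD1. The members were the rows of the deposited count table whose symbol is NDUFA, NDUFB, NDUFC, NDUFS or NDUFV followed only by a number, plus NDUFAB1, and 37 of the 23368 rows are described. All 37 passed the filter on low counts, as did 13648 genes in all. RNA was sequenced in 9 libraries in 3 groups of 3, which were cells given siLRWD1-6 or siLRWD1-5, each an siRNA against LRWD1, and cells given a scrambled siRNA. The LRWD1 protein (also ORCA) has WD repeats and associates with the origin recognition complex, which marks replication origins. Every group received siRNA at 13 nM by reverse transfection with siLentFect and was harvested 48 h later, from 3 independent experiments per the labels. Every group was also grown with 10% Tet system approved serum, Zeocin at 50 µg/ml and blasticidin S at 2 µg/ml, so the controls share these agents. The cells were 1 tumour line, and no untransfected cells were analysed here.

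Complex I takes electrons from NADH in its matrix arm, passes them over a flavin and a chain of iron-sulfur clusters to ubiquinone, and pumps protons through its membrane arm. The core subunits of the matrix arm are encoded in the nucleus, those of the membrane arm in mitochondrial DNA, and the accessory subunits, all nuclear, surround and stabilise both arms. The genes are grouped here by that layout into 6 core subunits of the matrix arm, 9 accessory subunits of the matrix arm, 9 of the proximal membrane arm and 11 of the distal membrane arm. NDUFAB1, the mitochondrial acyl carrier protein, sits at 2 places in the complex and is kept apart. NDUFA4 carries a complex I name but is now counted as a subunit of complex IV.

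LRWD1 itself was low in every library with an siRNA against it. It had 6.55, 8.11 and 8.55 CPM with siLRWD1-6, 10.6, 11.3 and 10.4 CPM with siLRWD1-5, and 49.1, 54.6 and 49.3 CPM in the scrambled libraries. CPM is the count relative to the TMM-scaled library total. Total counts ran from 11971179 to 15674452, and the lowest count of any member in any library was 229. Scrambled replicate 2 stood apart from the other scrambled libraries, with a chi-square per gene of 28.4 and 24.2, against 2.98 to 5.45 in the other pairs within a group. In that library 25 of the 37 members were higher than the mean of the other scrambled libraries, as were 7105 of the 13648 genes tested. The median difference on the log2 scale was 0.07 over the members, against 0.02 over all genes tested. Of 6 Ewing sarcoma markers 5 passed the filter on low counts, with means over the libraries of 26.7 CPM for NKX2-2 to 153 CPM for PRKCB. CD99 did not, at 0.41 CPM, and whether its reads were lost in counting was not tested. Of 15 markers of blood, endothelial, epithelial, muscle, liver, red and glial cells, 14 lay at 0.50 CPM or below and MYH11 at 0.64 CPM.

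The members were well expressed and covered a wide range of levels. Their median was 68.9 CPM in the scrambled libraries, against 31.2 CPM for all genes tested. Per kilobase of annotated transcript, NDUFS3, a core subunit of the matrix arm, was highest, with 212 ± 7.57 with siLRWD1-6, 193 ± 8.97 with siLRWD1-5 and 259 ± 9.57 CPM per kilobase in the scrambled libraries (SD, n = 3 each). NDUFV3, an accessory subunit of the flavoprotein part, was lowest in the scrambled libraries, at 15.5 ± 0.361 with siLRWD1-6, 13.8 ± 0.747 with siLRWD1-5 and 14.6 ± 1.11 CPM per kilobase in the scrambled libraries. The highest and lowest thus differed 17.8-fold there. In the order of the scrambled libraries 31 of the 36 pairs of neighbours overlapped between libraries, so most neighbouring ranks did not differ beyond their spread. The steps without overlap lay below NDUFS3, below NDUFB10, below NDUFB3, below NDUFS7 and below NDUFA9. Members are short, with a median length of 766 bases against 2588 bases for genes tested, and 35 of the 37 were shorter than that median. The length of a gene was the median over its annotated transcripts, at 583 bases for NDUFS3 and 3125.5 bases for NDUFV3. Which transcripts these cells use was not tested, so the order and range per kilobase depend on those lengths. Without division by length, scrambled means ran from 26.9 CPM for NDUFB1 to 163 CPM for NDUFS1.

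**Figure D1:**
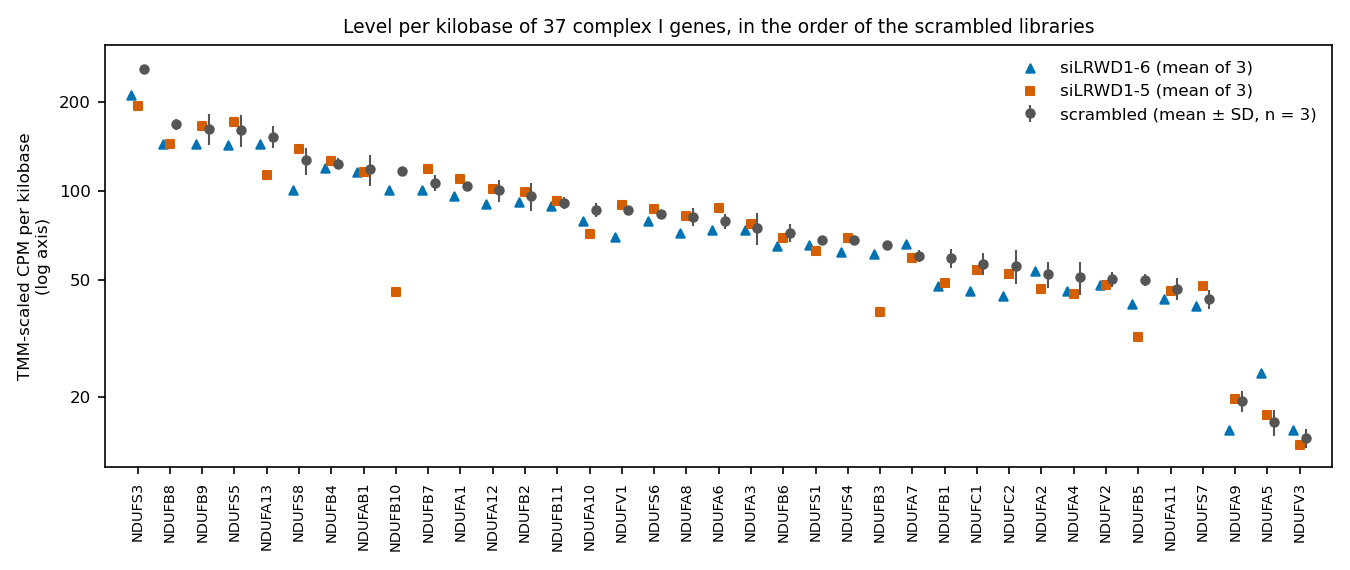
TMM-scaled CPM per kilobase (log axis) of the 37 complex I genes, ordered by the scrambled libraries; triangles and squares are means of 3 libraries with siLRWD1-6 and siLRWD1-5, circles the scrambled mean ± SD (n = 3). NDUFS3 is highest in all 3 groups, and NDUFB10 with siLRWD1-5 lies well below its other symbols. Lengths are medians over annotated transcripts, and the order depends on them.

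Summed over the 37 genes, complex I transcripts made 2541.18 ± 21.34 CPM with siLRWD1-6, 2602.61 ± 102.35 CPM with siLRWD1-5 and 2786.12 ± 123.02 CPM in the scrambled libraries (SD, n = 3 each). The sums were 2524 to 2565 CPM with siLRWD1-6 and 2486 to 2677 CPM with siLRWD1-5, against 2647 to 2880 CPM in the scrambled libraries. The siLRWD1-6 libraries lay below every scrambled library, whereas the siLRWD1-5 libraries overlapped them. In bulk RNA fewer transcripts per cell and a changed mix of cell states cannot be told apart. Replicates were tight, with a median coefficient of variation over the members of 4.80% with siLRWD1-6, 5.42% with siLRWD1-5 and 7.03% in the scrambled libraries.

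The promoter windows of members that changed are shown because they let the transcript changes be read beside the sequence at the start site. RefSeq windows (GRCh38.p14, 250 bases before to 50 after a start) were found for 32 members, in 39 windows. They were searched on both strands for GCATGCGC, a word of the nuclear respiratory factor NRF1, CCGGAAG, a word bound by ETS factors, and GCCATNTT, a word of YY1. Words of different motifs did not overlap in the members' windows. NDUFB10 and NDUFB3 lie at chr16:1959288-1959587 (plus strand) and chr2:201071751-201072050 (plus strand), NDUFS3 at chr11:47578824-47579123 (plus strand), and the NDUFA5 window shown, 1 of 3 for that gene, at chr7:123557769-123558068 (minus strand). Capitals mark the words found.
NDUFB10: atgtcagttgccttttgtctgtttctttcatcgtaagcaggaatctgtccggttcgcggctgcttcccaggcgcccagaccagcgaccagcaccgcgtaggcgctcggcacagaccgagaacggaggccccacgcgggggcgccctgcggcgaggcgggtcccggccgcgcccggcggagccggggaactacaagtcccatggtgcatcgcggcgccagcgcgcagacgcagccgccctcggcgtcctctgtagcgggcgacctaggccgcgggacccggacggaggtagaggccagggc
NDUFB3: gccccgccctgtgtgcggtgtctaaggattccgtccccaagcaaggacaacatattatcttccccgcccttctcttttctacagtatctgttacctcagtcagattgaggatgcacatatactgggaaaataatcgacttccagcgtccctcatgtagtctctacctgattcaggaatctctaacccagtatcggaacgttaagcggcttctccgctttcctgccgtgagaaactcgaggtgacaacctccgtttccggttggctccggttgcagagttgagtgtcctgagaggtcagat
NDUFS3: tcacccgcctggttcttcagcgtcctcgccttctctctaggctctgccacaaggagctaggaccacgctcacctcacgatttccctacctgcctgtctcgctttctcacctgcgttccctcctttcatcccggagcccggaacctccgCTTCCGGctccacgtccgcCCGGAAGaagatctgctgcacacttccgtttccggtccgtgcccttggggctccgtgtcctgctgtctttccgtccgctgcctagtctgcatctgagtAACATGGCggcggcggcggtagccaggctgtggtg
NDUFA5: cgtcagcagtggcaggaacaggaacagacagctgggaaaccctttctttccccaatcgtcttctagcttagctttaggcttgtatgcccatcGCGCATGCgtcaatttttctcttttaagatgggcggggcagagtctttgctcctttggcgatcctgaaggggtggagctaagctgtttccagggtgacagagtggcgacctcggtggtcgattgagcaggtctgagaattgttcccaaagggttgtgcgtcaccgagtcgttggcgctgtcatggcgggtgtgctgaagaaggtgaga

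NDUFB10 and NDUFB3, the members with the largest falls with siLRWD1-5 against scrambled, held none of the 3 words in these windows. NDUFS3 held the ETS word at 2 places before the start and the YY1 word after it. The NDUFA5 window shown held the NRF1 word, and the other 2 windows of that gene held none of the 3 words. Over all members the YY1 word stood in 35.9% of windows, against 6.58% of the 35116 windows in the table, and after the start, at positions 9 to 43, in 28.2% against 2.69%. The NRF1 word stood in 15.4% of members' windows against 3.05% of all, and the ETS word in 12.8% against 10.3%. Only members with a window are counted next. Of those called against scrambled, the NRF1 word was found in 0 of 7 with siLRWD1-5 and in 1 of 8 with siLRWD1-6, and in 5 of the 20 called with neither. The ETS word was found in 2 of 7, 1 of 8 and 3 of 20 of the same genes, and the YY1 word in 2 of 7, 4 of 8 and 9 of 20, each gene counted if any of its windows held the word. Those shares rest on few genes and are a description of letters, not of binding.

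With siLRWD1-6, complex I transcripts were slightly lower as a group in the reported fit, and 8 members fell while 1 rose. With an offset for transcript length and GC content 3 of the 37 fell, beside 8.5% of all genes. The members that fell were NDUFV1, NDUFS3 and NDUFS8 of the core, NDUFA9 of the matrix arm's accessory subunits, NDUFC1 of the proximal membrane arm, and NDUFB1, NDUFB5 and NDUFB8 of the distal arm. Their log2 fold changes lay between -0.34 and -0.22. NDUFA5 rose. Calls are an adjusted p under 0.05 by edgeR's quasi-likelihood test over all 13648 genes, of which 7.78% were lower and 8.81% higher with siLRWD1-6. The median log2 fold change was -0.12 over the members and -0.02 over all genes tested, and 33 of the 37 lay below zero, against 53.3% of all genes tested. In 15 members every siLRWD1-6 library lay below every scrambled library, against 17.3% of all genes tested, and in 2 every one lay above, against 16.4%. P-values here set a difference between groups against the spread between libraries within groups, from 3 experiments of this 1 line. That spread was estimated from all 9 libraries with information shared over genes. The reported fit left out the pairing of libraries by experiment.

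NDUFV1, the core subunit that binds NADH and the flavin, had 108, 102 and 106 CPM with siLRWD1-6, 138, 129.8 and 139 CPM with siLRWD1-5 and 132, 133 and 126 CPM in the scrambled libraries. The siLRWD1-6 libraries were below all others, and the siLRWD1-5 and scrambled libraries overlapped. Its log2 fold change by edgeR was -0.31 (SE 0.06, adjusted p = 0.0041) with siLRWD1-6 and 0.06 (SE 0.06, adjusted p = 0.46) with siLRWD1-5. NDUFS8, a core subunit that carries iron-sulfur clusters, had 51.6, 57.6 and 63.1 CPM with siLRWD1-6, 72.3, 79.3 and 85.8 CPM with siLRWD1-5 and 71.6, 80.8 and 65.4 CPM in the scrambled libraries. It too was lowest in the siLRWD1-6 libraries, without overlap, at a log2 fold change by edgeR of -0.34 (SE 0.10, adjusted p = 0.039) with siLRWD1-6 against scrambled. NDUFA9, an accessory subunit at the junction of the arms, had 64.7, 74.2 and 69.8 CPM with siLRWD1-6, 93.4, 88.7 and 84.3 CPM with siLRWD1-5 and 81.9, 95.5 and 84.9 CPM in the scrambled libraries. Its siLRWD1-6 libraries also lay below all others, with a log2 fold change by edgeR of -0.33 (SE 0.08, adjusted p = 0.015) with siLRWD1-6 and of 0.02 with siLRWD1-5. NDUFC1, a small membrane subunit, had 34.6, 39.3 and 34.4 CPM with siLRWD1-6, 45.2, 43.6 and 38.5 CPM with siLRWD1-5 and 42.2, 48.9 and 42.4 CPM in the scrambled libraries. Its siLRWD1-6 libraries lay below the scrambled ones but overlapped those with siLRWD1-5, at a log2 fold change by edgeR of -0.30 (SE 0.09, adjusted p = 0.047) with siLRWD1-6.

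NDUFA5, an accessory subunit of the matrix arm, was the only member called higher against scrambled. It had 41.8, 46.4 and 35.3 CPM with siLRWD1-6, 31.3, 29.1 and 28.6 CPM with siLRWD1-5 and 25.1, 30.9 and 27.9 CPM in the scrambled libraries. Every siLRWD1-6 library lay above every other library, and those with siLRWD1-5 overlapped the scrambled ones. Its log2 fold change by edgeR was 0.56 (SE 0.11, adjusted p = 0.0052) with siLRWD1-6 and 0.09 (SE 0.11, adjusted p = 0.57) with siLRWD1-5. The annotation lists 12 pseudogenes named after NDUFA5, so some of its reads may have been lost or counted for a copy. Its promoter window with the NRF1 word is shown above.

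The siLRWD1-6 count moved with single libraries, as did the share of all genes called lower. It was 3 lower members without siLRWD1-6 replicate 1, 2 or 3, beside 3.95%, 4.39% and 4.42% of all genes. It was 3 without scrambled replicate 1 (6.12% of all genes), 5 without scrambled replicate 3 (6.58%), 5 without siLRWD1-5 replicate 1 (6.48%) and 4 without siLRWD1-5 replicate 2 (6.23%). The log2 fold changes of the 8 kept their sign with any library left out, at -0.41 to -0.25 for NDUFS8, -0.37 to -0.22 for NDUFC1 and -0.24 to -0.17 for NDUFB8. NDUFV1, NDUFS3 and NDUFA5 stayed called in all 20 alternative settings. The call was lost in 2 of the 20 for NDUFA9, in 7 for NDUFS8, in 8 for NDUFB5, in 11 for NDUFB8, and in 14 each for NDUFC1 and NDUFB1. For NDUFA9 these were the fits without siLRWD1-6 replicate 1 or 3 (adjusted p by edgeR of 0.081 and 0.058). Among single libraries, NDUFS8 depended on scrambled replicate 1, siLRWD1-5 replicate 2 and siLRWD1-6 replicates 1 and 2 (0.068 to 0.16 by edgeR without them), and NDUFB5 on scrambled replicates 1 and 3, siLRWD1-5 replicate 3 and siLRWD1-6 replicates 2 and 3 (0.051 to 0.17). NDUFB8 depended on scrambled replicate 1, siLRWD1-5 replicates 1 and 2 and each siLRWD1-6 library (0.057 to 0.13). NDUFC1 depended on each library but siLRWD1-5 replicate 3 (0.05 to 0.17), and NDUFB1 on each but scrambled replicate 2 (0.057 to 0.2). Without scrambled replicate 2 there were 8 lower and 1 higher members, beside 13.3% lower and 15.3% higher among all genes, with NDUFB10 called lower and NDUFC1 not. With an offset for transcript length and GC content, 3 were lower and 2 higher, beside 8.5% and 9.3% of all genes, and 24 of the 37 lay below zero. The median log2 fold change with that offset was -0.08 over the members and -0.02 over all genes. With the replicate block as well, 6 were lower and 2 higher, beside 10.7% and 11.3%.

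**Figure D2:**
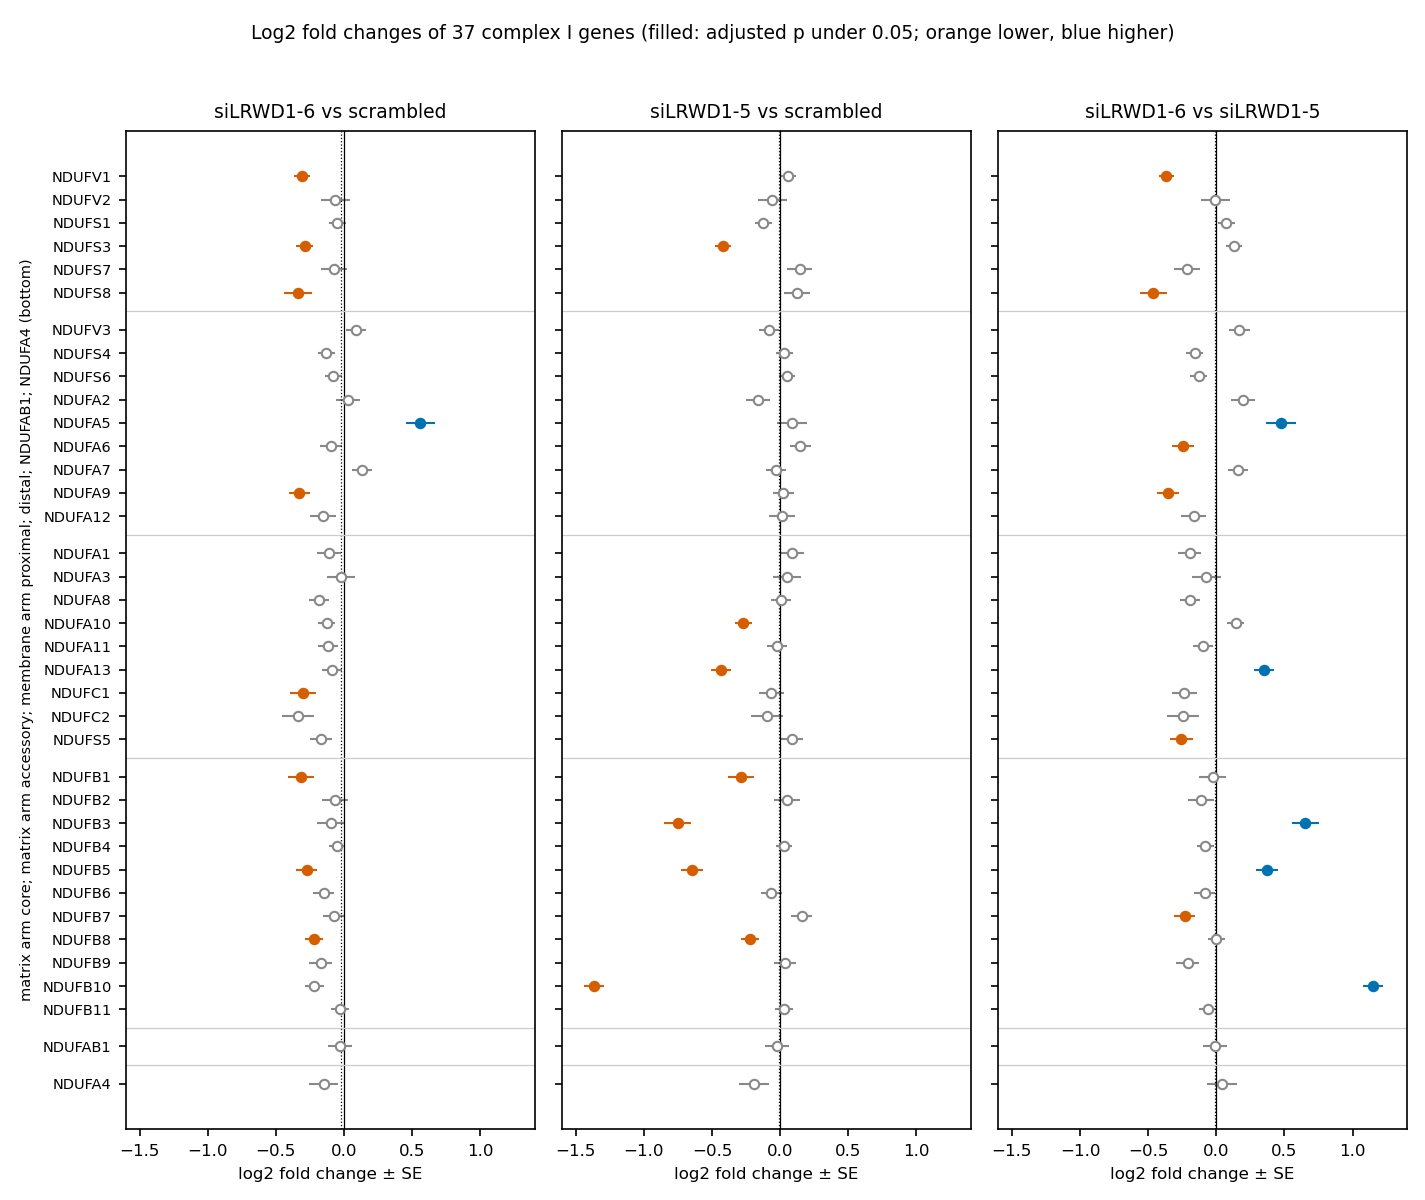
Log2 fold change ± SE of the 37 complex I genes in each comparison (x axis), from the matrix arm at the top to NDUFA4 at the bottom; filled symbols have an adjusted p under 0.05, orange lower and blue higher, and the dotted line is the median of all genes tested. With siLRWD1-6 most symbols lie a little left of zero, with NDUFA5 at 0.56; with siLRWD1-5 most lie at zero and a few, led by NDUFB10 at -1.37, lie far left.

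With siLRWD1-5, 8 members fell, and those not called had log2 fold changes between -0.19 and 0.16. Those that fell were NDUFB10, NDUFB3, NDUFB5, NDUFB8 and NDUFB1 of the distal membrane arm, NDUFA13 and NDUFA10 of the proximal membrane arm, and NDUFS3 of the matrix core. None was called higher by edgeR, and DESeq2 and limma-voom called 0 higher as well. Of the 29 members not called, 0 had an unadjusted p under 0.05 by edgeR. All genes tested were called lower in 20.3% and higher in 18.5% of cases, so 8 of 37 (21.6%) is a share close to the background. By module 5 of the 11 distal membrane arm genes, 2 of the 9 proximal ones, 1 of the 6 core ones and 0 of the 9 matrix accessory ones were called lower. The median log2 fold change was -0.02 over the members and -0.01 over all genes tested, and 19 of the 37 lay below zero. In 9 members every siLRWD1-5 library lay below every scrambled library, against 24.6% of all genes tested, and in 1 every one lay above, against 23.2%.

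NDUFB10, a distal subunit that faces the intermembrane space, changed most of all members. It had 65.8, 71.8 and 75.01 CPM with siLRWD1-6, 30.9, 33.7 and 31.3 CPM with siLRWD1-5 and 84.8, 80.2 and 82.1 CPM in the scrambled libraries. The siLRWD1-5 libraries lay far below all others, at 61.2% less than scrambled, with a log2 fold change by edgeR of -1.37 (SE 0.07, adjusted p = 1.7e-07). With siLRWD1-6 NDUFB10 had a log2 fold change of -0.22 (SE 0.07, adjusted p = 0.052) by edgeR, which missed the threshold although its libraries did not overlap the scrambled ones, and with the replicate block the adjusted p was 0.045. NDUFB3, another distal subunit, had 32.7, 36.7 and 30.7 CPM with siLRWD1-6, 21.9, 23.3 and 18.6 CPM with siLRWD1-5 and 36.6, 35.7 and 35.03 CPM in the scrambled libraries. Its siLRWD1-5 libraries lay below all others and its siLRWD1-6 libraries overlapped the scrambled ones, with log2 fold changes by edgeR of -0.10 (SE 0.10, adjusted p = 0.54) with siLRWD1-6 and -0.75 (SE 0.10, adjusted p = 0.00014) with siLRWD1-5. NDUFA13, also known as GRIM-19, spans the membrane arm and had 113, 119 and 124 CPM with siLRWD1-6, 90.9, 96.7 and 92.4 CPM with siLRWD1-5 and 134, 132 and 114 CPM in the scrambled libraries. It too was lowest with siLRWD1-5, at a log2 fold change by edgeR of -0.44 (SE 0.07, adjusted p = 0.00073), against -0.09 with siLRWD1-6. NDUFA10, an accessory subunit related to nucleoside kinases, had 115, 121 and 118 CPM with siLRWD1-6, 108, 111 and 101 CPM with siLRWD1-5 and 129, 135 and 122 CPM in the scrambled libraries. Its libraries did not overlap between any groups, and its log2 fold change by edgeR was -0.27 (SE 0.06, adjusted p = 0.0051) with siLRWD1-5 and -0.13 (SE 0.06, adjusted p = 0.2) with siLRWD1-6.

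NDUFS3, NDUFB5, NDUFB8 and NDUFB1 were called lower with each siRNA against the same 3 scrambled libraries. NDUFS3, a core subunit of the part that passes electrons to quinone, had 127, 124 and 119 CPM with siLRWD1-6, 116, 116 and 107 CPM with siLRWD1-5 and 150.2, 157 and 145 CPM in the scrambled libraries. No siRNA library reached the lowest scrambled one, and the log2 fold changes by edgeR were -0.29 (SE 0.06, adjusted p = 0.0079) with siLRWD1-6 and -0.42 (SE 0.06, adjusted p = 0.00027) with siLRWD1-5. NDUFB5, a distal subunit, had 46.2, 43.5 and 39.96 CPM with siLRWD1-6, 35.03, 31.4 and 33.8 CPM with siLRWD1-5 and 52.6, 49.6 and 54.8 CPM in the scrambled libraries. Its 3 groups did not overlap, with log2 fold changes by edgeR of -0.27 (SE 0.08, adjusted p = 0.034) with siLRWD1-6 and -0.65 (SE 0.08, adjusted p = 8.3e-05) with siLRWD1-5. NDUFB8, a distal subunit often used as a marker of the assembled complex, had 99.01, 96.95 and 100.5 CPM with siLRWD1-6, 100.2, 104 and 91.7 CPM with siLRWD1-5 and 113, 121 and 111 CPM in the scrambled libraries. Both siRNA groups lay below scrambled and overlapped each other, with log2 fold changes by edgeR of -0.22 (SE 0.06, adjusted p = 0.039) with siLRWD1-6 and -0.22 (SE 0.06, adjusted p = 0.019) with siLRWD1-5. NDUFB1, the member with the lowest mean CPM in the scrambled libraries, had 22.4, 22.9 and 19.6 CPM with siLRWD1-6, 23.6, 21.9 and 20.7 CPM with siLRWD1-5 and 28.7, 24.8 and 27.3 CPM in the scrambled libraries. Its siRNA groups also lay below scrambled, with log2 fold changes by edgeR of -0.31 (SE 0.10, adjusted p = 0.045) with siLRWD1-6 and -0.29 (SE 0.10, adjusted p = 0.034) with siLRWD1-5.

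With siLRWD1-5 the calls of NDUFB10, NDUFB3, NDUFB5, NDUFA13, NDUFS3 and NDUFA10 held in all 20 settings. That of NDUFB1 was lost in 8, among them without scrambled replicate 1 or 3 or siLRWD1-5 replicate 2 or 3 (adjusted p by edgeR from 0.08 to 0.11). That of NDUFB8 was lost in 4, among them without siLRWD1-5 replicate 3 (adjusted p by edgeR of 0.074). Members called higher, 0 in all, numbered 1 without scrambled replicate 2 (NDUFS5) and 2 without siLRWD1-5 replicate 3 (NDUFA6 and NDUFA1). Without scrambled replicate 2 the lower count stayed at 8, beside 25% of all genes lower and 24% higher. With the length and GC offset there were 6 lower and 4 higher (NDUFS4, NDUFA6, NDUFS5 and NDUFB4), beside 20.2% and 20% of all genes. The members' median turned to 0.07 with that offset.

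**Figure D3:**
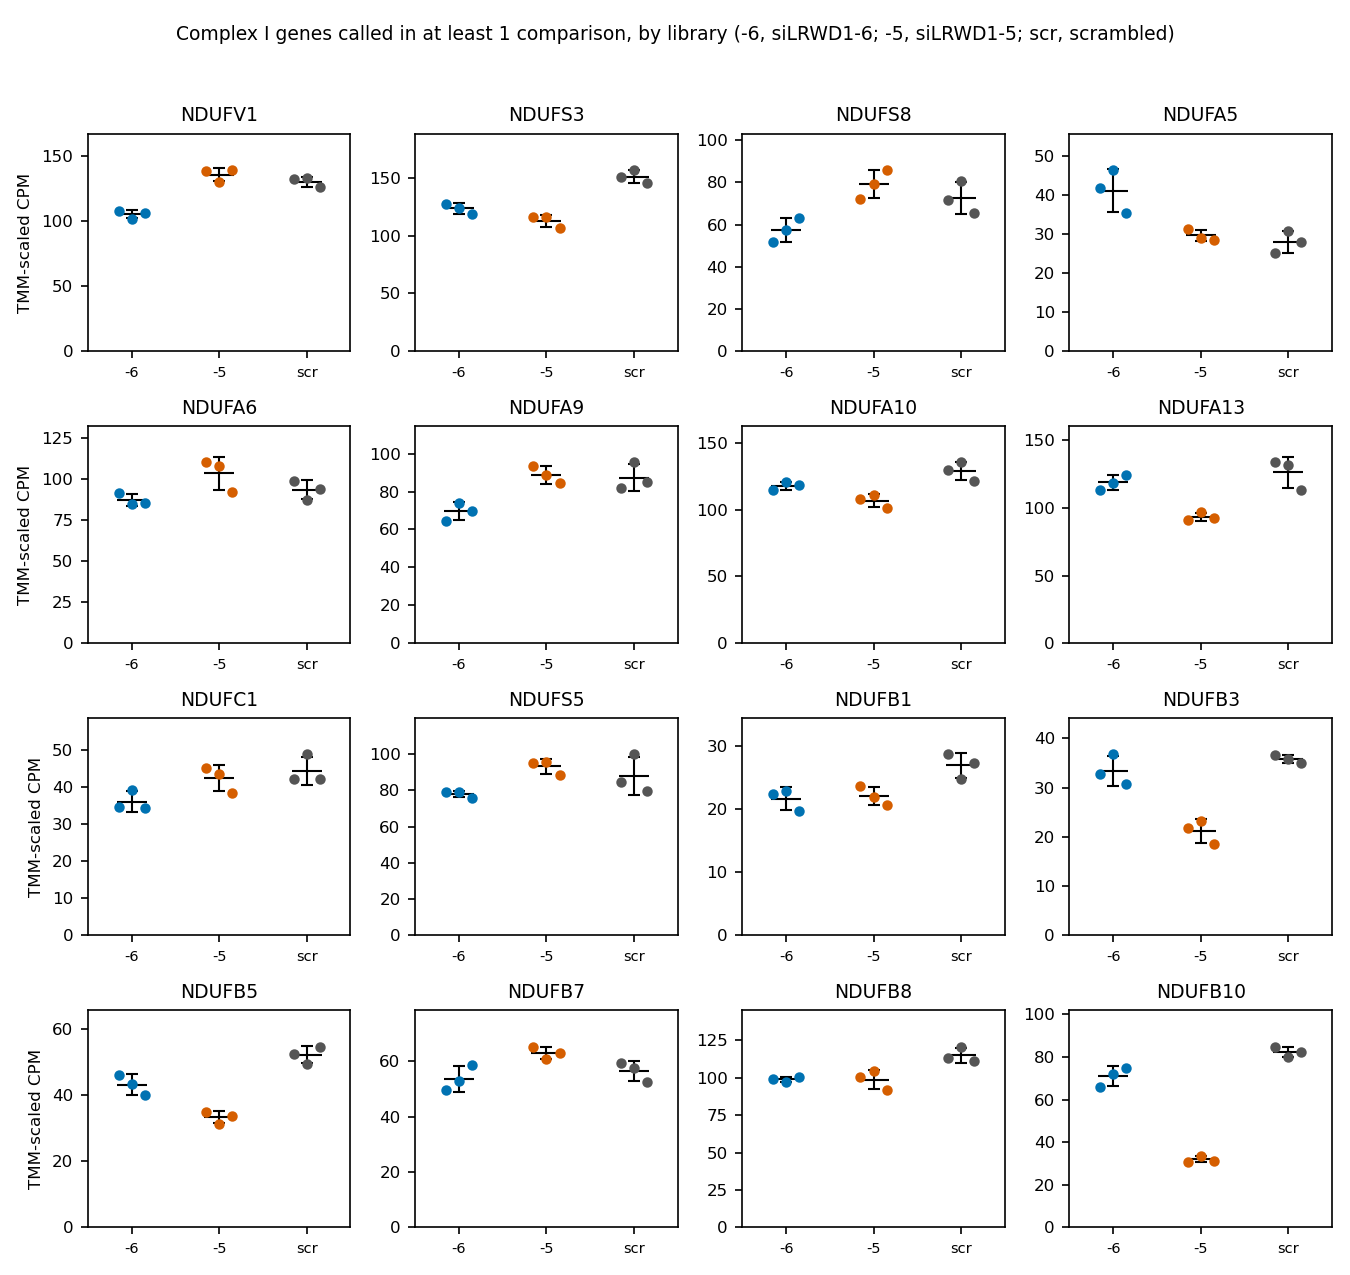
TMM-scaled CPM in each library (points) with mean ± SD (n = 3) of the 16 complex I genes called in at least 1 comparison, siLRWD1-6 left, siLRWD1-5 centre, scrambled right. NDUFB10, NDUFB3, NDUFB5 and NDUFA13 are lowest with siLRWD1-5, NDUFV1, NDUFS8 and NDUFA9 lowest with siLRWD1-6, and NDUFA5 highest with siLRWD1-6.

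The members not called are given here by their range. With siLRWD1-6 the 28 not called had log2 fold changes from -0.34 for NDUFC2 to 0.13 for NDUFA7, with SEs of 0.06 to 0.12. With siLRWD1-5 the 29 not called ran from -0.19 for NDUFA4 to 0.16 for NDUFB7, with SEs of 0.06 to 0.12. NDUFC2 with siLRWD1-6 (adjusted p = 0.077 by edgeR) shares 431 annotated bases with the readthrough gene NDUFC2-KCTD14, a row of its own in the table; with the replicate block its adjusted p by edgeR was 0.047. Among the 21 members called nowhere were NDUFV2, NDUFS1 and NDUFS7 of the core, which carry iron-sulfur clusters, NDUFS4 and NDUFS6, which are accessory subunits of the matrix arm, NDUFAB1 and NDUFA4. Changes under about 0.2 on the log2 scale were mostly not detectable with these errors. Some larger ones were missed too, such as NDUFC2 at -0.34 and NDUFB10 at -0.22 with siLRWD1-6.

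The siRNAs differed from each other in 11 members when compared directly. With siLRWD1-6, NDUFV1, NDUFS8, NDUFA9, NDUFA6, NDUFS5 and NDUFB7 were lower than with siLRWD1-5, and NDUFB10, NDUFB3, NDUFB5, NDUFA13 and NDUFA5 were higher. All genes tested were lower in 20.9% and higher in 22.4% of cases, so 6 and 5 of 37 (16.2% and 13.5%) lie under the background. With no scaling beyond library size there were 14 lower and 5 higher members, beside 26.4% lower and 18.2% higher among all genes. The 26 members not called ran from -0.24 for NDUFC2 to 0.20 for NDUFA2. In 12 members every siLRWD1-6 library lay below every siLRWD1-5 library, against 30.3% of all genes tested, and in 10 every one lay above, against 30.7%. NDUFB10 had the widest difference, at 1.15 (SE 0.07, adjusted p = 5e-07) on the log2 scale by edgeR. Next among those higher came NDUFB3, at 0.65 (SE 0.10, adjusted p = 3e-04), and NDUFA5, at 0.47 (SE 0.11, adjusted p = 0.0044), by edgeR. Among those lower, NDUFS8 differed by -0.46 (SE 0.10, adjusted p = 0.0031) and NDUFV1 by -0.37 (SE 0.06, adjusted p = 0.00038) by edgeR. NDUFA6, NDUFS5 and NDUFB7, which were called against scrambled with neither siRNA, differed by -0.24, -0.26 and -0.23.

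Calls between the siRNAs moved with single libraries. Lower members numbered 12 and higher ones 9 without scrambled replicate 2, beside 25.9% lower and 28.5% higher among all genes. Lower members numbered 3 without siLRWD1-5 replicate 2, beside 17% of all genes. With the replicate block, NDUFA8, NDUFC1 and NDUFB9 were also called lower (adjusted p by edgeR of 0.029, 0.027 and 0.036). NDUFV1, NDUFS8, NDUFA9, NDUFB10, NDUFB3, NDUFB5, NDUFA13 and NDUFA5 kept their calls in all 20 settings, whereas NDUFA6 lost it in 4, NDUFS5 in 5 and NDUFB7 in 7. NDUFA6 lost it without siLRWD1-6 replicate 2 or 3 or siLRWD1-5 replicate 1 or 2 (adjusted p by edgeR from 0.098 to 0.12), NDUFS5 without any siLRWD1-6 library or siLRWD1-5 replicate 1 or 2 (0.062 to 0.094), and NDUFB7 without siLRWD1-6 replicate 1 or 2 or any siLRWD1-5 library (0.053 to 0.15).

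**Figure D4:**
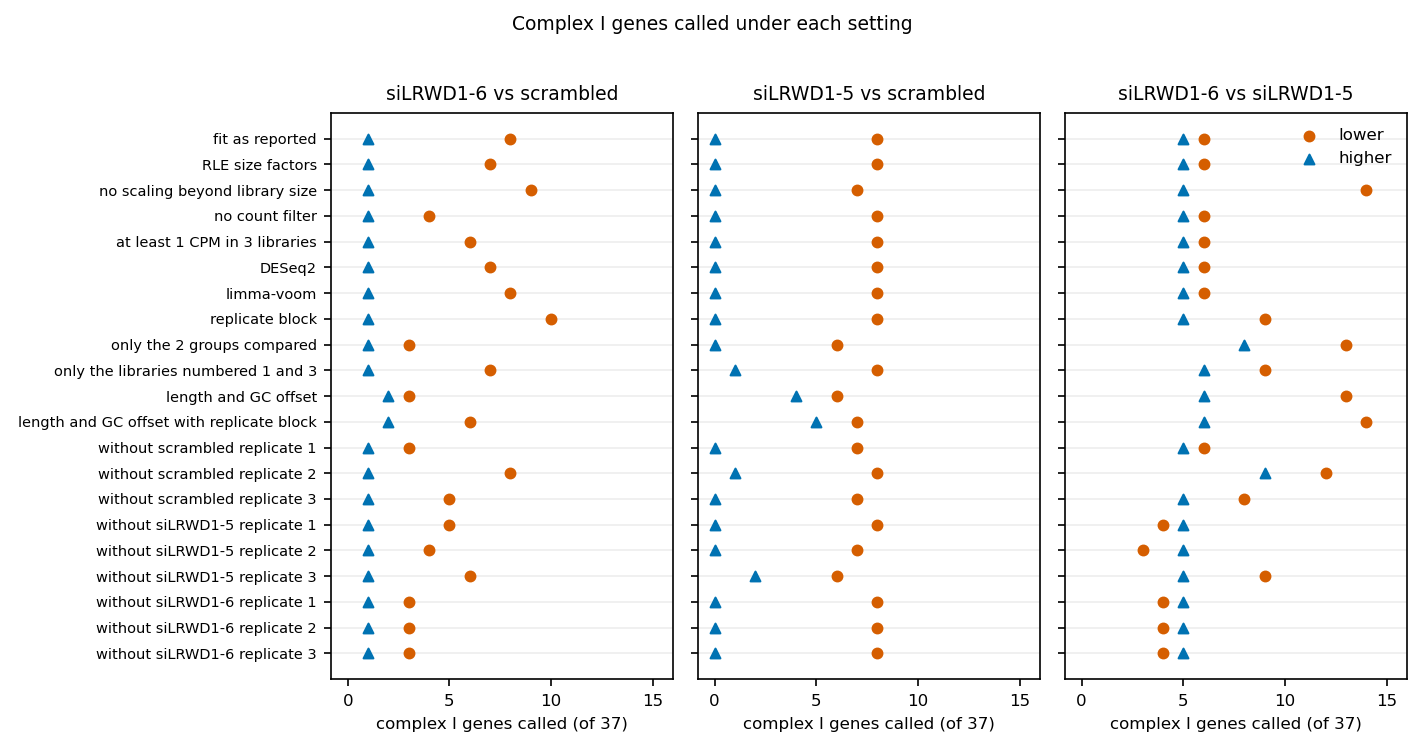
Number of the 37 complex I genes called lower (circles) and higher (triangles) in each comparison under the reported fit and each of 20 alternative settings (rows). With siLRWD1-5 the lower count stays between 6 and 8, with siLRWD1-6 it ranges from 3 to 10, and between the siRNAs from 3 to 14.

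Other genes of oxidative phosphorylation gave a frame for these counts. Of 42 genes listed for complexes II to V, a list that includes the regulator ATPIF1, 9 fell and 0 rose with siLRWD1-6, and 20 fell and 2 rose with siLRWD1-5. Those that fell made 21.4% with siLRWD1-6 and 47.6% with siLRWD1-5, against 7.78% and 20.3% of all genes tested. Below zero lay 37 of the 42 with siLRWD1-6 and 33 with siLRWD1-5. The median log2 fold change of the 42 was -0.12 with siLRWD1-6 and -0.15 with siLRWD1-5. The difference between these genes and the complex I members was not tested. ATPIF1, an inhibitor and not a subunit of ATP synthase, had 104 ± 3.47 CPM with siLRWD1-6 against 144 ± 10.7 CPM in the scrambled libraries (SD, n = 3 each), a log2 fold change of -0.48 with an SE of 0.07 and an adjusted p of 0.00097 by edgeR. COX4I1, a nuclear subunit of cytochrome c oxidase, had 117 ± 8.34 CPM with siLRWD1-5 against 249.1 ± 11.9 CPM in the scrambled libraries (SD, n = 3 each), a log2 fold change of -1.09 with an SE of 0.07 and an adjusted p of 4.9e-07 by edgeR. SDHC, a membrane anchor of succinate dehydrogenase, had 22.2 ± 1.99 CPM with siLRWD1-5 against 50.4 ± 3.92 CPM in the scrambled libraries (SD, n = 3 each), a log2 fold change of -1.18 with an SE of 0.10 and an adjusted p of 4.7e-06, and UQCR11, a subunit of complex III, had 52.4 ± 3.11 CPM with siLRWD1-5 against 111 ± 13.3 CPM in the scrambled libraries (SD, n = 3 each), a log2 fold change of -1.09 with an SE of 0.09 and an adjusted p of 3.4e-06, both by edgeR. ATP5D, the delta subunit of ATP synthase, had 42.9 ± 5.78 CPM with siLRWD1-5 against 89.3 ± 2.80 CPM in the scrambled libraries (SD, n = 3 each), a log2 fold change of -1.06 with an SE of 0.09 and an adjusted p of 7e-06 by edgeR. With siLRWD1-6, COX4I1 had 247 ± 4.50, SDHC 45.0 ± 3.83, UQCR11 105 ± 1.61 and ATP5D 92.0 ± 5.11 CPM (SD, n = 3 each). These were not called against scrambled with siLRWD1-6. ATPIF1 had 145 ± 8.36 CPM with siLRWD1-5.

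**Figure D5:**
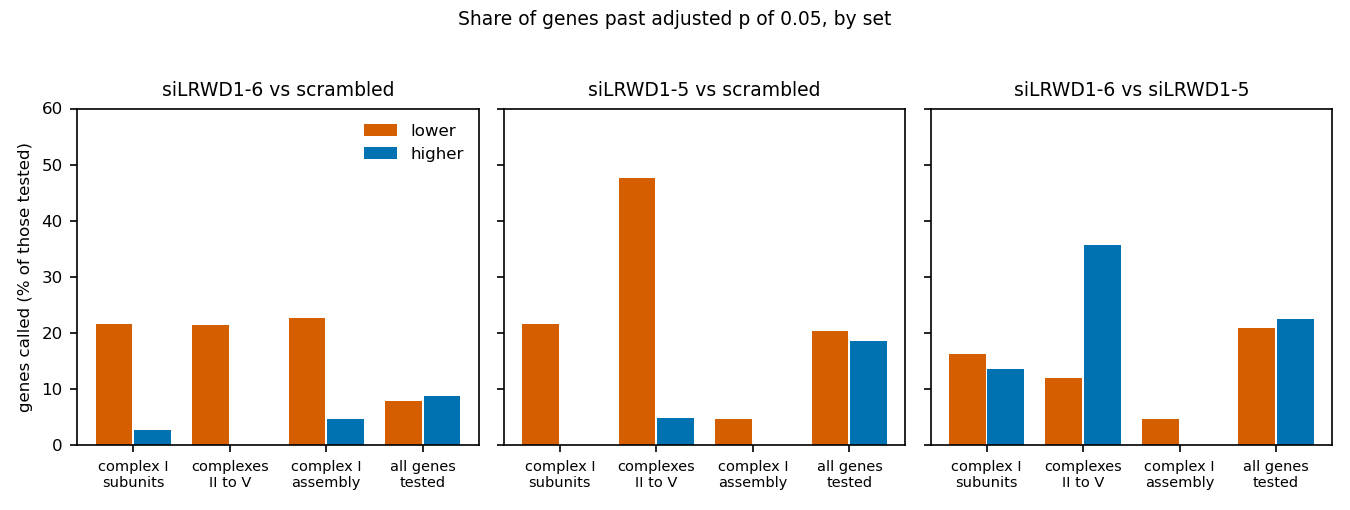
Share of genes with an adjusted p under 0.05 (y axis, %), lower in orange and higher in blue, for the 37 complex I genes, 42 genes listed for complexes II to V, 22 complex I assembly factors and the 13648 genes tested. With siLRWD1-6, 21.6% of complex I genes were lower, beside 21.4% for complexes II to V, 22.7% of assembly factors and 7.78% of all genes. With siLRWD1-5 these shares were 21.6%, 47.6%, 4.55% and 20.3%. Shares are from the reported fit. With a length and GC offset, 3 of the 37 complex I genes were lower with siLRWD1-6, beside 8.5% of all genes.

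Genes that build, supply or regulate complex I were counted in the same way. Of all genes tested, 7.78% were lower and 8.81% higher with siLRWD1-6, and 20.3% and 18.5% with siLRWD1-5. Of 22 assembly factors, 5 fell (22.7%) and 1 rose with siLRWD1-6, and 1 fell (4.55%) and 0 rose with siLRWD1-5. ECSIT, an assembly factor, had 36.01 ± 0.494 CPM with siLRWD1-6 against 45.96 ± 1.49 CPM in the scrambled libraries (SD, n = 3 each), a log2 fold change of -0.35 with an SE of 0.07 and an adjusted p of 0.0046 by edgeR. With siLRWD1-5 ECSIT had a log2 fold change of -0.40. Of 15 genes of iron-sulfur cluster assembly, 2 fell and 2 rose with siLRWD1-6 and 4 fell and 0 rose with siLRWD1-5, led by ISCU, the scaffold protein, at 22.4 ± 1.94 CPM with siLRWD1-5 against 47.9 ± 4.13 CPM in the scrambled libraries (SD, n = 3 each), a log2 fold change of -1.10 with an SE of 0.11 and an adjusted p of 1.7e-05 by edgeR. Of 15 mitochondrial enzymes that make NADH, 3 fell and 1 rose with siLRWD1-6 and 4 fell and 1 rose with siLRWD1-5. OGDH, a subunit of the oxoglutarate dehydrogenase complex, had 99.9 ± 4.46 CPM with siLRWD1-6 against 189.6 ± 6.71 CPM in the scrambled libraries (SD, n = 3 each), a log2 fold change of -0.92 with an SE of 0.06 and an adjusted p of 4.6e-06 by edgeR. Of 19 regulators of mitochondrial biogenesis, 2 fell and 1 rose with siLRWD1-6 and 7 fell and 3 rose with siLRWD1-5. TFAM, which packages mitochondrial DNA and starts its transcription, had 28.3 ± 1.69 CPM with siLRWD1-5 against 56.1 ± 3.20 CPM in the scrambled libraries (SD, n = 3 each), a log2 fold change of -0.99 with an SE of 0.07 and an adjusted p of 2.7e-06 by edgeR. With siLRWD1-6, TFAM had 59.8 ± 2.17 CPM and ISCU 51.5 ± 6.20 CPM, and neither was called against scrambled. OGDH had 148 ± 6.38 CPM with siLRWD1-5, a log2 fold change of -0.36. As shares, the iron-sulfur genes were lower in 13.3% with siLRWD1-6 and 26.7% with siLRWD1-5, and the NADH enzymes in 20% and 26.7%. The biogenesis regulators were lower in 10.5% and 36.8%. These lists are short, and their difference from all genes was not tested. The Ewing markers tested were lower in 1 of 5 with siLRWD1-6 and in 5 of 5 with siLRWD1-5, and their part in the complex I values was not tested.

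Counting limits touch some members. The kit does not mark strand, and NDUFB2 overlaps BRAF over 1239 annotated bases, NDUFB11 overlaps RBM10 over 636 and NDUFA1 overlaps RNF113A over 341 on the other strand, so reads there cannot be told apart. NDUFA13 shares 131 bases with YJEFN3 on the same strand. Named pseudogenes number 12 for NDUFB4, 6 for NDUFS5, 5 for NDUFA3, 3 for NDUFB9 and 2 each for NDUFB10, NDUFB5, NDUFB8 and NDUFB1.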

How the data were processed

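Per the labels' protocols, RNA of 9 libraries was prepared with the Illumina TruSeq RNA v2 kit, and the submitters' processing notes name hg19, HTSeq 0.5.4p3, TopHat2 2.0.10 and bcl2fastq 1.8.4. The authors deposited raw counts per gene symbol. No source used here gives the annotation or the counting mode. Genes kept by filterByExpr (13648 of 23368) were TMM-scaled, and edgeR 4.0.16 (R 4.3.3) supplied the test (robust quasi-likelihood fit, group only, all 9 libraries, Benjamini-Hochberg over all genes tested). SEs came from the F statistic. The labels give each library a series number that recurs in every group, which was taken to pair the libraries; deviations from group means correlated at 0.048 to 0.37 between libraries with the same number (9 pairs) and at -0.33 to 0.14 between those with different numbers (18 pairs). The fit was also run on simulated data, but the criterion for passing was reset after the initial draw had been seen. That run is therefore not used as evidence for the calls. The 20 alternatives were RLE size factors, no scaling, no count filter, 1 CPM in 3 libraries, DESeq2 1.42.0, limma-voom (limma 3.58.1), a replicate block, only the 2 groups compared, only libraries 1 and 3, a length and GC offset with and without the block, and each library left out. Lengths came from GENCODE 29 (GRCh38), matched for 89.2% of genes tested, and promoters from RefSeq. The members, modules and gene lists were chosen with earlier results of these data known. Any member could be named; members called against scrambled are given by library, and up to 4 called genes per list, by smallest p. Of the 38 rows that match the symbol pattern, 1 is not reported here.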

Additional observations from a re-analysis of the deposited data

Results flagged for a closer look

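In 11 members the effect of siLRWD1-6 differed from that of siLRWD1-5, by edgeR's test of the difference between the siRNA groups at an adjusted p under 0.05. Of the members 16.2% were lower and 13.5% higher, under the 20.9% and 22.4% of all genes tested. On the log2 scale siLRWD1-6 lay above siLRWD1-5 by 1.15 for NDUFB10, 0.65 for NDUFB3, 0.47 for NDUFA5, 0.37 for NDUFB5 and 0.35 for NDUFA13. The difference was -0.46 for NDUFS8, -0.37 for NDUFV1, -0.35 for NDUFA9, -0.26 for NDUFS5, -0.24 for NDUFA6 and -0.23 for NDUFB7. In each of the 11 the libraries of the siRNA groups did not overlap. The same held for 30.3% of all genes tested on the lower side and 30.7% on the higher side.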

How the results depend on the processing

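Counts of members called lower with siLRWD1-6 were 4 with no count filter, 3 with only the 2 groups compared and 3 with the length and GC offset, beside 5.01%, 5.22% and 8.5% of all genes, and 3 to 8 with a library left out. Higher with siLRWD1-6 were 2 with that offset and 2 with the offset and block, beside 9.3% and 11.3% of all genes, and 1 with a library left out. With siLRWD1-5, higher were 1 with only libraries 1 and 3, 4 with the offset and 5 with the offset and block, beside 23.9%, 20% and 22.4% of all genes, 0 to 2 with a library left out, and lower 6 to 8. Between the siRNAs, lower were 14 with no scaling, 13 with only the 2 groups, 13 with the offset and 14 with the offset and block, beside 26.4%, 27.2%, 22.3% and 24.5% of all genes, and higher 8 with only the 2 groups, beside 28.2%; with a library left out, lower were 3 to 12 and higher 5 to 9. The causes were not tested. The replicate block gave 10 lower and 1 higher with siLRWD1-6, beside 9.84% and 10.8% of all genes. It gave 8 and 0 with siLRWD1-5, beside 22.3% and 21.2%, and 9 and 5 between the siRNAs, beside 23.1% and 24.4%. It added the calls of NDUFB10 and NDUFC2 with siLRWD1-6 and of NDUFA8, NDUFC1 and NDUFB9 between the siRNAs, and changed no other member's call. Signs turned for members not called: NDUFV1 with siLRWD1-5 at -0.023 and -0.024 with the offset without and with the block, NDUFC1 with siLRWD1-5 at 0.053 and 0.054 likewise and 0.0015 with only libraries 1 and 3, NDUFA13 with siLRWD1-6 at 0.0039 and 0.0040, NDUFB7 with siLRWD1-6 at 0.019 and 0.019, and NDUFB8 between the siRNAs at -0.0061 and -0.0060, and -0.067 with no scaling. Leaving out a library gave NDUFA9 with siLRWD1-5 -0.023 to 0.092, NDUFC1 with siLRWD1-5 -0.12 to 0.0066, and between the siRNAs NDUFB1 -0.070 to 0.051 and NDUFB8 -0.048 to 0.046. Over all 111 member fold changes and 20 settings, 101 of 2220 values changed sign, in members not called, none called afterwards and none above 0.10 in size. Depth was ample (lowest member count 229); each group had 3 libraries.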
